A study of Mus musculus with 12 samples.

Results

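Retinoic acid is made from retinol in 2 oxidation steps and is then bound, or broken down, inside the cell. Described here are 9 genes of that route, taken by symbol from a list: Rdh10, Dhrs3, Aldh1a1, Aldh1a2, Aldh1a3, Aldh1a7, Crabp2, Cyp26a1 and Cyp26b1. This list and the gene lists further below were chosen with earlier results of these data known, so counts over them are descriptions. A gene was included where the array annotation gave a probe set that symbol and no other. All 9 were found, each with 1 probe set, among 22180 genes so named and 41345 probe sets in all. No filter on low values was applied, so all 9 were tested.

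The cells were MLE12, an epithelial line of the distal mouse lung that carries the large T antigen of SV40, and their RNA was measured on 12 Affymetrix arrays in 4 groups of 3. The groups were shRNA against the long noncoding RNA NANCI, the scrambled control named for it, shRNA against an RNA called LL34, and its named scrambled control. Each shRNA group and the control named for it are called a set here. All 4 groups received lentivirus with a pLKO.1 construct for 12 hours, at 60% confluency, and were collected after 65 hours of subculture. The labels call the 3 arrays of a group biological replicates without saying that they were separate infections, so the p-values below rest on the spread between arrays, which may be technical. They name no clone, and each RNA was targeted by what the labels give as 1 shRNA treatment.

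Retinol is oxidised to retinaldehyde by retinol dehydrogenases such as RDH10, and DHRS3 runs that step in reverse, returning retinaldehyde to retinol. Retinaldehyde dehydrogenases of the ALDH1A family then make retinoic acid, which cannot be turned back. CRABP2 carries retinoic acid to its nuclear receptors, and the CYP26 enzymes oxidise it to products that leave the pathway. In the developing lung retinoic acid is needed for formation of the lung bud, and its level there is set by where the ALDH1A and CYP26 enzymes are made.

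Array medians were 6.84 to 6.88 in the 6 NANCI arrays and 6.54 to 6.61 in the 6 LL34 arrays on the log2 scale, so shRNA arrays were set against the scrambled arrays of the same set. Arrays of a group correlated at 0.986 or higher, and the third LL34 scrambled array stood lowest against its own group (0.988). The labelled cell type was checked through 8 alveolar type 2 markers: Sftpc averaged log2 signals of 9.18, 9.58, 9.93 and 10.55 in the NANCI shRNA, NANCI scrambled, LL34 shRNA and LL34 scrambled groups. Sftpb, Abca3 and Nkx2-1 averaged 9.02 or higher in each of the 4 groups. Sftpa1, Sftpd, Lamp3 and Slc34a2 averaged 6.45 or lower, below the array medians, in each of the 4 groups. The gene table gives Nanci as a synonym of Sfta3-ps, which was at 13.3% of its scrambled level in NANCI shRNA cells. Nkx2-1, the lung epithelial homeodomain factor encoded beside it, was at 50.1%. The RNA named LL34 was not analysed here, so "LL34 shRNA" names a treatment. In LL34 shRNA cells Sfta3-ps also fell, to 62.6% of its scrambled level, and Nkx2-1 to 83.2%.

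In cells given the NANCI shRNA, 2 of the 9 genes rose and 2 fell against their scrambled arrays. Aldh1a1 rose by 0.65 and Cyp26b1 by 0.33 on the log2 scale, while Dhrs3 fell by 0.87 and Aldh1a3 fell by 0.46. Calls are limma adjusted p-values under 0.05, and by that rule 19.9% of all probe sets were called in this comparison, 10.3% higher and 9.6% lower. For 6 of the 9 genes the shRNA and scrambled arrays did not overlap, as for 33% of all probe sets. The median change of the 9 genes was -0.07, beside 0.01 over all probe sets.

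In cells given the LL34 shRNA, 5 of the 9 genes fell and 0 rose by the same limma rule, and 0 were higher at an unadjusted p of 0.05. Aldh1a1 fell by 3.04, the fifth deepest fall of all 41345 probe sets, Aldh1a2 fell by 1.09 and Cyp26b1 fell by 0.96. Aldh1a3 fell by 0.44 and Rdh10 by 0.31. Over all probe sets 16.4% were called, 9.7% higher and 6.66% lower, and the same 5 of the 9 genes had groups that did not overlap, as 31% of all probe sets did. As deposited, 4011 probe sets were higher and 2755 lower. Quantile normalization over the 12 arrays gave 3307 higher and 3463 lower, and median centring gave 3062 higher and 3035 lower. The median change of the 9 genes was -0.31, beside 0.0038 over all probe sets. As these arrays measure bulk RNA, fewer cells that make these RNAs and less of the RNA per cell cannot be told apart.

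**Figure D1:**
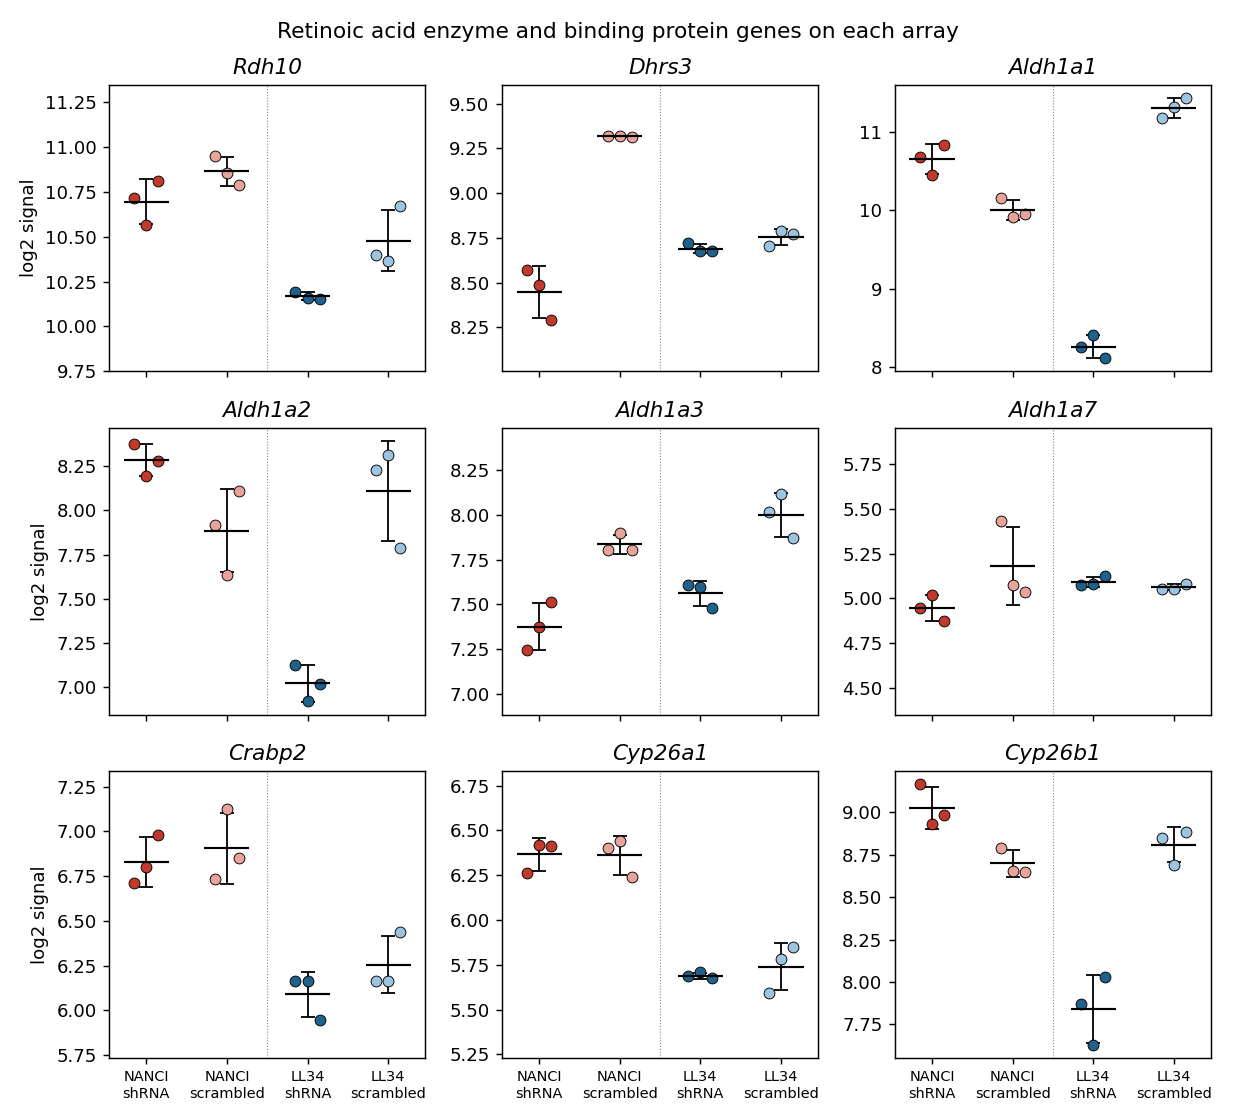
Log2 signal (vertical axis, with its own range in each panel) of the 9 genes on each of 12 arrays, with points for arrays and the mean and SD of 3 arrays in black. NANCI shRNA arrays are left of their scrambled arrays and LL34 shRNA arrays left of theirs. The 3 Aldh1a1 points of the LL34 shRNA group lie between 8.11 and 8.41, below every other array.

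The first step holds Rdh10 and Dhrs3, which act in opposite directions. Dhrs3 (probe set 17421312) measured 8.57, 8.48 and 8.29 on the NANCI shRNA arrays, against 9.32, 9.32 and 9.31 on the NANCI scrambled arrays. The groups lay 0.74 apart at their nearest arrays, and the scrambled arrays differed from each other by less than 0.01. The change was -0.87 (SE 0.0692, limma adjusted p = 7.54e-06), so 54.8% of the NANCI scrambled level remained. With all 6 scrambled arrays as 1 control group it measured -0.59 (adjusted p = 0.0254). The gap between the scrambled groups (LL34 minus NANCI, -0.56) enters that value by construction, so it is no test of the fall.

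After LL34 shRNA, Dhrs3 read 8.72, 8.68 and 8.68, against 8.71, 8.79 and 8.77 on the LL34 scrambled arrays. These groups overlapped, and the change of -0.07 missed the threshold (95% interval -0.22 to 0.09, limma adjusted p = 0.631). The difference between both changes was itself called, at -0.80 (95% interval -1.02 to -0.59, limma adjusted p = 0.000174).

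Rdh10 (probe set 17211258) gave 10.19, 10.16 and 10.15 on the LL34 shRNA arrays, against 10.40, 10.36 and 10.67 on the LL34 scrambled arrays. The groups were 0.17 apart, and the scrambled group spread more (SD 0.168) than the shRNA group (SD 0.0228). The fall of 0.31 passed the threshold narrowly (SE 0.0901, limma adjusted p = 0.0381). It no longer passed once any 1 of 6 arrays was omitted: NANCI shRNA replicate 1, NANCI scrambled replicate 2, all LL34 shRNA replicates and LL34 scrambled replicate 3 (adjusted p from 0.0505 to 0.11, and a change of -0.21 without the last). It was lost as well in a fit of the LL34 arrays alone (0.0875). Against all 6 scrambled arrays the fall was 0.50 (adjusted p = 0.0283). There the gap between the scrambled groups (LL34 minus NANCI, -0.39) enters the change by construction, so this value is no test of the fall.

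After NANCI shRNA, Rdh10 read 10.71, 10.57 and 10.81, against 10.95, 10.86 and 10.79 in the scrambled group. The arrays overlapped, and the change was -0.17 (95% interval -0.37 to 0.03, limma adjusted p = 0.263). The NANCI and LL34 changes of Rdh10 differed by 0.14 (95% interval -0.14 to 0.42, adjusted p = 0.552), so a difference between the treatments was not shown.

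Aldh1a1 encodes a cytosolic retinaldehyde dehydrogenase that also oxidises other aldehydes. Its probe set (17358103) measured 8.26, 8.41 and 8.11 on the LL34 shRNA arrays, against 11.18, 11.31 and 11.43 on the LL34 scrambled arrays. The nearest arrays of these groups were 2.76 apart. The change was -3.04 (SE 0.115, 95% interval -3.30 to -2.79, limma adjusted p = 3.32e-07), an 8.24-fold fall that left 12.1% of the scrambled level.

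On the NANCI shRNA arrays Aldh1a1 read 10.68, 10.45 and 10.83, against 10.16, 9.91 and 9.95 on the NANCI scrambled arrays. No shRNA array fell within the scrambled range, and the change was 0.65 (SE 0.115, limma adjusted p = 0.00182), or 1.57-fold. The difference between the NANCI and LL34 changes was 3.69 (95% interval 3.33 to 4.05, limma adjusted p = 3.81e-07).

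The rise after NANCI shRNA was set against the NANCI scrambled arrays, and the scrambled groups of the sets differed in Aldh1a1. Aldh1a1 stood at 11.31 ± 0.125 on the LL34 scrambled arrays and at 10.01 ± 0.132 on the NANCI scrambled arrays (SD, n = 3 each). The NANCI shRNA group, at 10.65 ± 0.191, lay between them. With all 6 scrambled arrays as 1 control group the NANCI change was -0.0036 (adjusted p = 0.994), while the LL34 change remained called at -2.39 (adjusted p = 0.00113). In that setting the gap between the scrambled groups, which cannot be told apart from the set, enters each change by construction. The value is therefore no test of the rise.

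Aldh1a7 is a rodent gene beside Aldh1a1 on chromosome 19 and encodes a closely similar protein. Its probe set (17363429) lay between the 14.3 and 22.6 percentile of all signals on each array, which gives its place among signals and not an amount of RNA. It read 5.07, 5.08 and 5.13 on LL34 shRNA arrays, against 5.05, 5.05 and 5.08 on LL34 scrambled arrays. The groups overlapped and the change was 0.03 (95% interval -0.17 to 0.23, limma adjusted p = 0.886), beside -3.04 for Aldh1a1. At so low a signal the first value can understate a change of the Aldh1a7 RNA, so these changes cannot be compared in size. After NANCI shRNA Aldh1a7 read 4.95, 5.02 and 4.87, against 5.43, 5.08 and 5.04 in the scrambled group. These did not overlap, as in 33% of all probe sets, but the change of -0.24 missed the threshold (limma adjusted p = 0.11). The probe sequences were not used here, so how far either probe set also binds the RNA of the other gene was not tested.

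The stretches before the annotated starts of Aldh1a1 and Aldh1a7 are shown because the genes are alike there. A change was called for Aldh1a1 and not for Aldh1a7, whose low signal can hide one. The stretch of Aldh1a2 is shown because this gene also fell after LL34 shRNA. These stretches are from RefSeq (build GRCm38.p6), 100 bases each, 5′ to 3′ in gene orientation, ending 1 base before the start. Aldh1a1 has 2 annotated starts, and the downstream one is used: chr19:20601868-20601967, plus strand. Aldh1a7 is at chr19:20727557-20727656, minus strand, and Aldh1a2 at chr9:71215689-71215788, plus strand. Capitals mark ATGCAAAT, the octamer bound by POU factors.
Aldh1a1: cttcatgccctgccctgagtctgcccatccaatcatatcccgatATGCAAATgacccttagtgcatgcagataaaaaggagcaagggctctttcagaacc
Aldh1a7: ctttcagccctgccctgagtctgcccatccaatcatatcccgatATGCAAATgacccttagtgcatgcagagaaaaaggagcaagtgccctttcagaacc
Aldh1a2: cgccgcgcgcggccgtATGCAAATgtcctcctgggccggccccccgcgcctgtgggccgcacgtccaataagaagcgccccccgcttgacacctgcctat

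In a global alignment 96 of 101 columns were identical between the Aldh1a1 and Aldh1a7 stretches, or 95%. Before the upstream Aldh1a1 start, which is not printed, 59 of 116 columns were identical to Aldh1a7 (50.9%), and the window of that start holds 0 octamers. The octamer lies at positions -56 to -49 in both and at -84 to -77 in Aldh1a2. Searched on both strands, it is present in 570 of 32851 promoter windows of 300 bases (1.74%), and it was chosen after these sequences were seen. A match describes the letters and shows no binding.

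Aldh1a2, the main retinaldehyde dehydrogenase of the embryo, followed Aldh1a1 at a smaller size. Its probe set (17519112) measured 7.13, 6.92 and 7.02 on the LL34 shRNA arrays, against 8.23, 8.32 and 7.79 on the LL34 scrambled arrays. The nearest arrays lay 0.66 apart, with the third scrambled array the lowest of its group. The change was -1.09 (SE 0.144, 95% interval -1.41 to -0.77, limma adjusted p = 0.000441), which left 47.1% of the scrambled level.

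On the NANCI arrays Aldh1a2 read 8.38, 8.20 and 8.28 with the shRNA, against 7.92, 7.64 and 8.11 in the scrambled group. The groups did not overlap, by a gap of 0.09, and the change of 0.40 missed the threshold (95% interval 0.08 to 0.72, limma adjusted p = 0.083). It passed without LL34 scrambled replicate 3, whose spread enters the fit (0.40, adjusted p = 0.0233), without NANCI scrambled replicate 3 (0.51, 0.0445) and after quantile normalization over all arrays (0.43, 0.0302). It passed as well in the fits over fewer features, those at or above the median level (0.0474) or 1 mean per gene (0.0393). The difference between both changes was called, at 1.49 (95% interval 1.04 to 1.94, limma adjusted p = 0.000391).

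Aldh1a3 (probe set 17491941), another retinaldehyde dehydrogenase, was the 1 gene of the 9 that fell in both comparisons, as 1.92% of all probe sets did. It read 7.25, 7.37 and 7.51 on NANCI shRNA arrays, against 7.80, 7.90 and 7.80 on their scrambled arrays. On the LL34 arrays it read 7.61, 7.59 and 7.48 with the shRNA, against 8.01, 8.12 and 7.87 in the scrambled group. In neither set did the groups overlap. The changes were -0.46 (SE 0.0828, limma adjusted p = 0.002) after NANCI shRNA and -0.44 (adjusted p = 0.00387) after LL34 shRNA, leaving 72.8% and 73.7%. They differed by -0.02 (95% interval -0.28 to 0.24, limma adjusted p = 0.95).

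Crabp2 (probe set 17398895), the carrier of retinoic acid to its receptors, measured 6.71, 6.80 and 6.98 on the NANCI shRNA arrays, against 6.74, 7.13 and 6.85 on the scrambled arrays. On the LL34 arrays it measured 6.16, 6.16 and 5.94 with the shRNA, against 6.16, 6.16 and 6.44 in the scrambled group. The groups overlapped in both sets. The changes were -0.07 (95% interval -0.34 to 0.19, limma adjusted p = 0.784) and -0.16 (95% interval -0.43 to 0.10, adjusted p = 0.45). Its probe set lay between the 38.4 and 54.7 percentile of the signals on each array, and a low signal can understate a change of the RNA. The 6 LL34 arrays held only 3 distinct Crabp2 values, with 4 arrays exactly equal across both groups. The 3 LL34 shRNA arrays were exactly equal at 464 probe sets and the 3 LL34 scrambled arrays at 212, while the NANCI shRNA arrays were so at 0 and the NANCI scrambled arrays at 1. The cause of these ties was not tested, and SDs and p-values of tied probe sets may be too small.

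Of the enzymes that break retinoic acid down, Cyp26b1 changed and Cyp26a1 was not called. Cyp26b1 (probe set 17468286) measured 7.87, 7.63 and 8.03 on the LL34 shRNA arrays, against 8.85, 8.69 and 8.88 on the LL34 scrambled arrays, a gap of 0.66. The change was -0.96 (SE 0.104, 95% interval -1.19 to -0.74, limma adjusted p = 0.000116), which left 51.2% of the scrambled level.

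On the NANCI shRNA arrays Cyp26b1 read 9.16, 8.93 and 8.98, against 8.79, 8.65 and 8.65 on the scrambled arrays. The groups lay 0.14 apart and the change was 0.33 (SE 0.104, limma adjusted p = 0.0481). Leaving out any 1 of 9 arrays ended this call, namely all 6 NANCI arrays, LL34 shRNA replicate 1 and LL34 scrambled replicates 1 and 2 (changes from 0.26 to 0.37, adjusted p from 0.0525 to 0.177). It ended too with arrays centred on their medians (0.0712), with array weights (0.068) and against all 6 scrambled arrays (0.0924). The difference between the NANCI and LL34 changes was called at 1.29 (95% interval 0.97 to 1.61, limma adjusted p = 0.000109).

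Cyp26a1 is a classic direct target of retinoic acid, with response elements before its start. The window of Cyp26a1 (RefSeq, GRCm38.p6) is shown because it was the 1 window among those of the 9 genes with such an element. It holds a pair of half-sites spaced by 5 bases, at positions -32 to -16 counted from an annotated start at 37697808. The gene table begins the gene at 37697738, upstream of this pair, so by that start the pair lies inside the gene. The 30 bases at chr19:37697769-37697798, plus strand, 5′ to 3′, carry both half-sites in capitals. On the minus strand the pair reads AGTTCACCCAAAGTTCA.
Cyp26a1: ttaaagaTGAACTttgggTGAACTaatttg
The half-sites searched were AGGTCA together with the variant AGTTCA, the variant GGGTCA and the variant GGTTCA. Pairs of them in 1 orientation with NNNNN between them, on either strand, were found in 32 of 32851 windows (0.0974%). With NN between them they were found in 88 windows (0.268%) and in none of these genes. Windows were listed for 6 of the 9 genes and not for Aldh1a3, Rdh10 and Crabp2. No match says only that these letters are not in the window.

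The Cyp26a1 probe set (17359088) lay between the 31.8 and 40.8 percentile of the signals on each array. It read 6.26, 6.42 and 6.42 on NANCI shRNA arrays, against 6.40, 6.44 and 6.24 on their scrambled arrays. On the LL34 arrays it read 5.69, 5.71 and 5.68 with the shRNA, against 5.59, 5.78 and 5.85 in the scrambled group. Both pairs of groups overlapped. The changes were 0.0049 (95% interval -0.17 to 0.18, limma adjusted p = 0.983) and -0.05 (95% interval -0.23 to 0.13, adjusted p = 0.772). These intervals bound the change of the signal, which at low signal can understate that of the RNA.

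**Figure D2:**
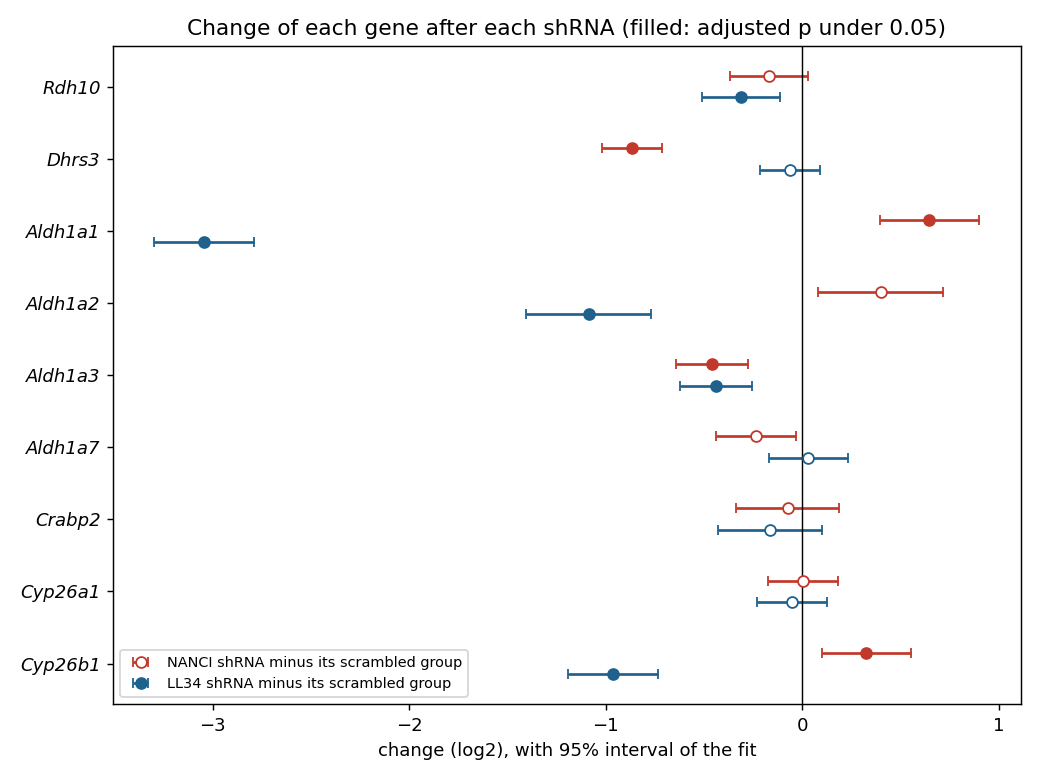
Change of each of the 9 genes on the log2 scale (horizontal axis), shRNA minus the scrambled group of its set, with the 95% interval of the limma fit over 12 arrays. Filled points passed an adjusted p of 0.05. Aldh1a1, Aldh1a2 and Cyp26b1 lie right of 0 after NANCI shRNA and left of 0 after LL34 shRNA, with the open Aldh1a2 point missing the threshold, and Aldh1a3 lies left of 0 in both.

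Set side by side, 2 of the 9 genes, Aldh1a1 and Cyp26b1, were called higher after NANCI shRNA and lower after LL34 shRNA, as 1.73% of all probe sets were. For Cyp26b1 this rests on a narrow NANCI call (limma adjusted p = 0.0481) that was lost without any 1 of 9 arrays. The comparisons shared no control arrays. The difference between the changes was called for 4 genes, positive for Aldh1a1, Aldh1a2 and Cyp26b1 and negative for Dhrs3, beside 18.8% of all probe sets. With neither shRNA was a change called for Aldh1a7, Crabp2 and Cyp26a1.

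Ordered by their level over the 4 groups on the deposited scale, which may differ between the sets, both Aldh1a1 and Cyp26b1 were lowest in LL34 shRNA cells. For Aldh1a1 the order was LL34 scrambled, NANCI shRNA, NANCI scrambled and LL34 shRNA, and neighbours in it lay further apart than either SD. For Cyp26b1 it was NANCI shRNA (9.02 ± 0.123), LL34 scrambled (8.81 ± 0.103), NANCI scrambled (8.70 ± 0.0798) and LL34 shRNA (7.84 ± 0.2), and the LL34 and NANCI scrambled groups overlapped. Aldh1a2 kept the order of Cyp26b1, with 8.28 ± 0.0898, 8.11 ± 0.282, 7.89 ± 0.237 and 7.02 ± 0.103 (SD, n = 3 in each group). The Aldh1a2 ranges of the NANCI shRNA and the LL34 scrambled arrays overlapped, as did those of the LL34 and NANCI scrambled arrays. With arrays centred on their medians the upper places of both genes turned: above NANCI scrambled, Cyp26b1 lay 0.32 higher in NANCI shRNA and 0.41 in LL34 scrambled cells, and Aldh1a2 lay 0.39 and 0.52 higher in these groups.

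The 2 scrambled groups received the same kind of treatment and were measured in different sets, so set and group cannot be told apart. LL34 scrambled minus NANCI scrambled, limma called 5 of the 9 genes, 1 higher and 4 lower, and for the same 5 the groups did not overlap. Over all probe sets 54.6% were called, 8.55% higher and 46% lower, 58.2% did not overlap, and the median was -0.22. That background turned with the scaling: 3533 were higher and 19028 lower as deposited, 7514 and 8684 after quantile normalization (median -0.01), and 11653 higher and 6344 lower after median centring (median 0.08). Aldh1a1 was higher in the LL34 scrambled group by 1.30 (adjusted p = 1.01e-05), and by 1.38 after quantile normalization over all arrays and 1.60 with arrays centred on their medians. Dhrs3 measured -0.56 (adjusted p = 7.56e-05), Cyp26a1 -0.62 (0.000105), Crabp2 -0.65 (0.000965) and Rdh10 -0.39 (0.00403). After quantile normalization these became -0.45, -0.28, -0.34 and -0.33, all still called, and Aldh1a2 and Aldh1a3 were called higher in the LL34 scrambled group, by 0.40 and 0.34. Centring left Rdh10 at -0.09, not called (adjusted p = 0.446), and brought Cyp26b1 to 0.41 (0.0125).

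Patterns most like those of Aldh1a1, Dhrs3 and Cyp26b1, the genes with the smallest p after either shRNA, were looked for among 19384 other named genes. Likeness was Pearson's r over the 12 arrays after taking each set's mean from its 6 arrays, given as a description of values that share arrays and groups. For Aldh1a1 the nearest were Shroom1 (0.989), which encodes an actin-binding protein, the kinase gene Sgk1 (0.989) and Dbn1 (0.988), which encodes an actin-binding protein. They measured -0.94, -1.69 and -0.83 after LL34 shRNA and 0.28, 0.45 and 0.15 after NANCI shRNA, the last not called. For Dhrs3 they were Arfgef3 (0.992), Mcrs1 (0.99) and Mtrr (0.99), the last encoding methionine synthase reductase, with -1.26, -0.66 and -1.70 after NANCI shRNA. After LL34 shRNA these measured -0.16, -0.0077 and -0.18, none called. For Cyp26b1 they were Creg1 (0.978), Tmbim1 (0.977) and Ptges2 (0.973), with -0.50, -0.33 and -0.58 after LL34 shRNA. After NANCI shRNA Creg1 and Tmbim1 measured 0.12 and 0.14, not called, and Ptges2 0.25, called.

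Genes that feed or use the same route were read from lists of uptake and storage genes, other retinol and retinaldehyde oxidoreductases, receptors and retinoic acid targets. Rarb, Stra6 and Lrat stand in the target list and in another of these. Of 13 measured uptake, storage and transport genes, 1 rose and 2 fell after NANCI shRNA, and 1 fell after LL34 shRNA, with none higher by limma (1 at an unadjusted p of 0.05). Over all probe sets, 10.3% were called higher and 9.6% lower after NANCI shRNA, and 9.7% and 6.66% after LL34 shRNA. Lrp2, which encodes the endocytic receptor megalin that takes up retinol with its carrier, fell in both comparisons, by 0.71 (limma adjusted p = 5.73e-05) and 0.75 (8.45e-05). Dgat1, an acyltransferase that can also esterify retinol, fell by 0.44 after NANCI shRNA and Lipe, a hormone-sensitive lipase, rose by 0.44. The retinol transporter gene Stra6 measured 0.03 and -0.13, with neither called.

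Among 25 other retinol, retinaldehyde and carotenoid enzymes, 2 rose and 5 fell after NANCI shRNA, beside 10.3% and 9.6% of all probe sets. Adh5, a glutathione-dependent alcohol dehydrogenase, rose by 0.96 (limma adjusted p = 2.23e-06). The alcohol dehydrogenase gene Adh7, whose enzyme can oxidise retinol, fell by 0.55, the carbonyl reductase gene Dhrs4 by 0.53, Dhrs9 by 0.49 and Rdh13 by 0.33, and Rdh14 rose by 0.24. After LL34 shRNA 1 rose and 1 fell, beside 9.7% and 6.66% of all probe sets. Rdh13 rose by 0.47 (limma adjusted p = 0.000355) and Adh7 fell by 0.83 (0.000159). For Rdh13 the difference between both changes was called, at -0.80 (adjusted p = 7.17e-05).

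Of 6 receptor genes, 2 were called higher after NANCI shRNA and lower after LL34 shRNA, as 1.73% of all probe sets were. Rara and Rarg rose by 0.64 and 0.49 after NANCI shRNA and fell by 0.28 (limma adjusted p = 0.0475) and 0.62 (0.000234) after LL34 shRNA. Rarb, itself a retinoic acid target, fell by 0.43 (0.0224) after NANCI shRNA and measured -0.32 (0.0919) after LL34 shRNA. The 3 retinoid X receptor genes were not called in either comparison. At an unadjusted p of 0.05, Rxra was higher (0.21) and Rxrb lower (-0.28) after NANCI shRNA.

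Of 20 measured retinoic acid target genes, 3 rose and 8 fell after NANCI shRNA (median -0.13), beside 10.3% and 9.6% of all probe sets. With the LL34 shRNA 3 rose and 1 fell (median -0.02), beside 9.7% and 6.66% of all probe sets. After NANCI shRNA the zinc finger gene Zfp703 fell by 0.93 (limma adjusted p = 0.000126), the homeobox gene Meis2 by 0.68 (4.84e-05) and the transglutaminase gene Tgm2 by 0.47 (0.00934). Rarres1, a retinoid-responsive gene, fell by 0.28, while the Hox genes Hoxb2 and Hoxa4 rose by 0.39 and 0.40. After LL34 shRNA Hoxa5 rose by 0.75 (0.00164), Zfp703 by 0.38 (0.0399) and Hoxb4 by 0.31 (0.016), and Tgm2 fell by 0.46 (0.0138). Most of these genes have other regulators as well, and they read no level of retinoic acid, which was not measured.

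Aldehyde dehydrogenases outside the ALDH1A family changed in 8 of 16 cases after NANCI shRNA, 6 higher and 2 lower, and in 9 after LL34 shRNA, 2 higher and 7 lower. Shares over all probe sets were 10.3% higher and 9.6% lower after NANCI shRNA, and 9.7% and 6.66% after LL34 shRNA. The proline enzyme gene Aldh4a1 rose by 1.59 after NANCI shRNA (limma adjusted p = 4.32e-07), Aldh9a1, whose enzyme acts on aminoaldehydes, by 0.82, Aldh3b1 by 0.80 and the lysine enzyme gene Aldh7a1 by 0.66. Aldh1l2, a mitochondrial folate enzyme gene, fell by 2.50 (1.05e-07), and the proline synthesis gene Aldh18a1 fell by 0.74. After LL34 shRNA the falls included Aldh3a1 (-1.39, adjusted p = 3.84e-06), Aldh3b1 (-1.36), Aldh9a1 (-1.24) and Aldh6a1 (-0.68). Aldh1l2 rose there by 2.11 (4.09e-07) and Aldh18a1 by 0.59. The difference between both changes was called for 9 of the 16, 7 positive and 2 negative, beside 8.63% and 10.2% of all probe sets.

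**Figure D3:**
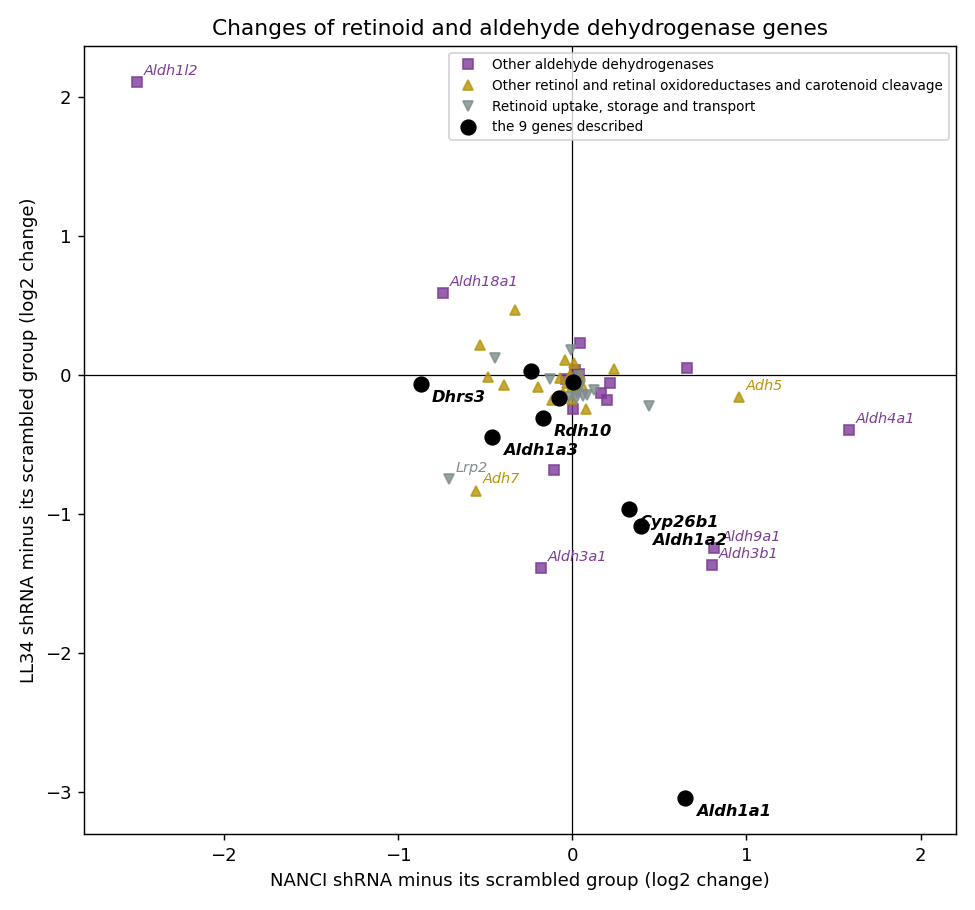
Log2 change after NANCI shRNA (horizontal axis) and after LL34 shRNA (vertical axis), each against its own scrambled group, for the 9 genes (black) and for 3 lists of related genes, with names on genes past 0.7 in either direction and on 6 of the 9 genes. Aldh1a1 lies lowest at 0.65 and -3.04, with Aldh9a1 and Aldh3b1 also at the lower right and Aldh1l2 at the upper left at -2.50 and 2.11.

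Mesothelium, the lining of the lung surface, also makes ALDH1A enzymes, so its markers were read in these cells of an epithelial line. Of 7 measured mesothelial markers 6 fell after LL34 shRNA, beside 6.66% of all probe sets. The changes were -2.46 for Upk3b (limma adjusted p = 1.71e-06), -1.63 for Upk1b, -1.09 for Gpm6a, -0.95 for the mesothelin gene Msln, -0.75 for Lrrn4 and -0.33 for Wt1, a mesothelial transcription factor. Muc16 measured 0.05 and was not called. The mean log2 signal of the list ran from 7.61 to 7.76 on LL34 shRNA arrays and from 8.63 to 8.77 on LL34 scrambled arrays. After NANCI shRNA, where Aldh1a1 rose, 3 of the 7 fell and 1 rose, beside 9.6% and 10.3% of all probe sets. List means there ran from 8.18 to 8.28 on shRNA arrays and from 8.82 to 8.94 on scrambled arrays. Msln, Upk1b and Gpm6a fell there by 2.00, 1.35 and 1.30, Wt1 rose by 0.27, and Upk3b measured 0.07 (adjusted p = 0.822). The part of these genes in the Aldh1a1 and Aldh1a2 results was not tested.

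**Figure D4:**
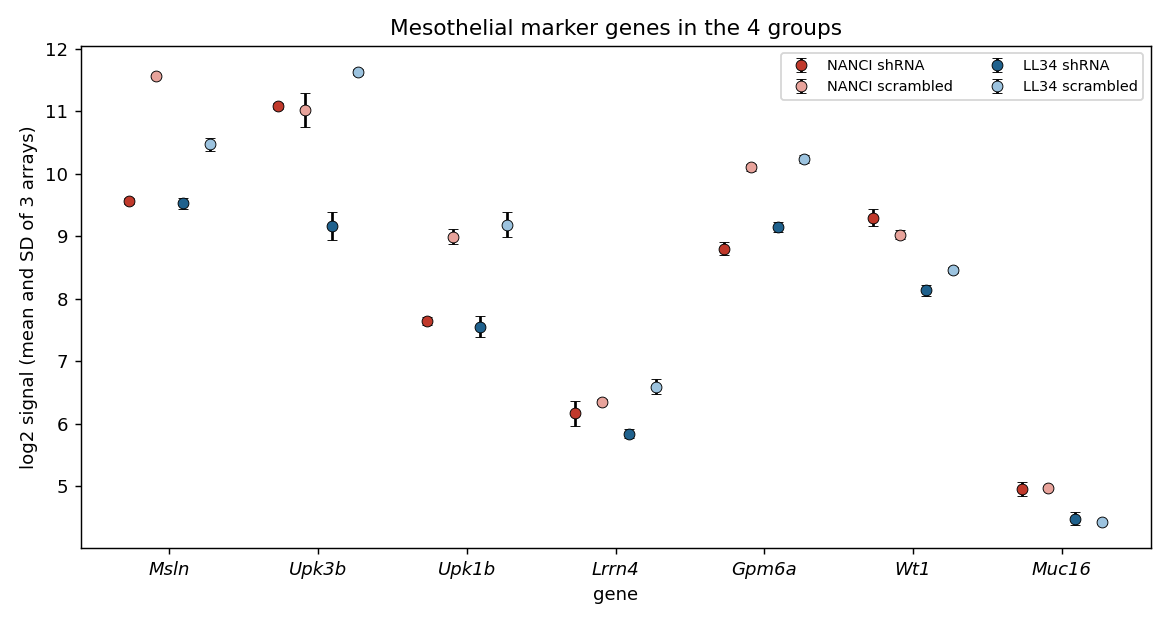
Log2 signal (vertical axis, mean and SD of 3 arrays) of 7 mesothelial marker genes in the NANCI shRNA, NANCI scrambled, LL34 shRNA and LL34 scrambled groups. Msln, Upk1b and Gpm6a are lower with either shRNA than in its scrambled group, Upk3b is lower with the LL34 shRNA, and Muc16 is dim at 4.97 or lower.

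The other marker lists had at most 3 calls each after LL34 shRNA. Of all probe sets 19.9% were called after NANCI shRNA and 16.4% after LL34 shRNA. Of 8 fibroblast markers limma called 0 after LL34 shRNA (1 at an unadjusted p of 0.05), and Dcn fell after NANCI shRNA, by 0.91. Of 6 leukocyte markers 2 rose after NANCI shRNA, Cd14 by 1.73 and Cd68 by 0.88, and limma called 0 after LL34 shRNA (1 at an unadjusted p of 0.05). Of 6 endothelial markers only Tek was called, at -1.05 and -1.26. Of 3 club cell markers limma called 0 with either shRNA, against 1 after NANCI shRNA and 2 after LL34 shRNA at an unadjusted p of 0.05. Of 8 alveolar type 2 markers Abca3 fell by 1.24 and Nkx2-1 by 1.00 after NANCI shRNA, and after LL34 shRNA Sftpc fell by 0.62, Nkx2-1 by 0.27 and Sftpb rose by 0.62. Of 5 general epithelial markers, after NANCI shRNA Cdh1 fell by 1.56, Krt8 by 0.43 and Cldn4 rose by 0.35, and after LL34 shRNA Krt8 fell by 0.67 and Epcam rose by 0.33.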

How the data were processed

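Each deposited value is a log2 signal of 1 of 41345 probe sets on 1 array. Per the submitters' processing notes, the authors used oligo, RMA and limma. Versions and annotation: not given in the sources used here. Array medians differ between the 6 NANCI and the 6 LL34 arrays, so the sets look normalized separately. Values were used as deposited, with no filter. Symbols came from the platform annotation (23521 probe sets with 1 symbol, 1814 with several, 16010 with none), 23328 of them updated by Entrez number through a gene table of assembly GRCm38.p6. The brightest probe set by mean stood for a gene.

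Group means of all 12 arrays were fitted with limma 3.58.1 in R 4.3.3 (input read with data.table, version 1.17.8), with 8 residual and 2.84 prior degrees of freedom and Benjamini-Hochberg adjustment over all probe sets. The threshold was an adjusted p of 0.05. The test was tried on simulated data. Figures used matplotlib 3.10.9 and alignments Biopython 1.88. For arrays, their number limits the precision.

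Members and gene lists were chosen with earlier results of these data known. The text names all 9 members, the called list genes with the smallest p (at most 6 a comparison) and 3 nearest patterns for each of 3 members. Stra6, Muc16, Sftpa1, Sftpd, Lamp3, Slc34a2 and, after NANCI shRNA, Upk3b were added after values were seen. Alternatives covered scaling, the fit, the control group, dim probe sets, the replicate number as a block and each array left out.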

Additional observations from a re-analysis of the deposited data

Results flagged for a closer look

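The NANCI and LL34 changes differed, by the limma test of the difference itself over all 12 arrays, for 4 of the 9 genes. NANCI change minus LL34 change was 3.69 for Aldh1a1, 1.49 for Aldh1a2, 1.29 for Cyp26b1 and -0.80 for Dhrs3 on the log2 scale. These calls held in every alternative run for them, with adjusted p of at most 0.000171, 0.00277, 0.000566 and 0.00359.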

How the results depend on the processing

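Of 36 gene results (9 genes in 4 comparisons), 28 kept their direction if called and their side of the threshold in every alternative run. With all 6 scrambled arrays as 1 control group, Aldh1a1 after NANCI shRNA turned to -0.0036, 2 genes in place of 4 were called after NANCI shRNA, and 4309 probe sets in place of 6766 after LL34 shRNA. In that setting a gap between the sets enters each change by construction. Between the scrambled groups, at or above the median level, 10994 of 20673 probe sets were called, in place of 22561 of 41345. There 3 of the 9 genes were called in place of 5. Aldh1a7, Cyp26a1 and Crabp2 lay below that level and were not tested, and the calls of Aldh1a1, Dhrs3 and Rdh10 held. The array weights stopped short of their convergence tolerance.

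Replicate numbers did not pair the samples: correlations of same-numbered deviations ran from -0.125 to 0.0451. With the replicate number as a block, Rdh10 lost its LL34 call (adjusted p = 0.0855), and the cause was not tested. No other gene call changed in the 3 comparisons it could be run for, with 6906 probe sets called after NANCI shRNA, 5257 after LL34 shRNA and 6320 for the difference. Blocks of replicates within each set give no value for the comparison of the scrambled groups.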
